A study of Mus musculus with 12 samples.

Results

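The oncostatin M receptor gene Osmr, its signalling partners Il6st, Lifr, Il6ra, Jak1 and Stat3, the inhibitor Socs3 and the acute-phase gene Serpina3n were described in mouse hippocampus. Members were the probe sets whose platform annotation gave exactly 1 gene symbol and that symbol was 1 of these 8. This gave 15 probe sets of the 12422 tested, and all 15 are described, since no filter on level was used. Lifr had 5 probe sets, Il6st, Stat3 and Socs3 had 2 each, and Osmr, Il6ra, Jak1 and Serpina3n had 1 each. Where a gene had several, they are numbered from the highest mean, so that probe set 1 is the brightest. The genes were selected on measured values, because Osmr had been higher in mutants than in controls in earlier results from the same arrays. For that reason the members' differences between genotypes are given below as a description, with no p-value. Counts of members past the threshold in those comparisons are given only beside the share over all probe sets and support nothing.

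The arrays measured hippocampal total RNA from littermate mice of both sexes, 5 to 6 weeks old, that had lost CREB and CREM (mutants) or served as their controls. Animals received 20 mg/kg kainate, a glutamate receptor agonist that causes seizures, or saline, by injection into the abdomen. They were killed 1 hour later. The 4 groups were control with saline, control with kainate, mutant with saline and mutant with kainate, with 3 arrays each. An array carried RNA pooled from 3 animals, so a group rests on 9 animals and the error describes pools, not single mice. The strain, the cells in which the genes were disrupted and the genotype of the controls are not given in the sources used here.

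Oncostatin M, leukaemia inhibitory factor and interleukin 6 are related cytokines that act through receptors sharing the chain gp130, the product of Il6st. Oncostatin M binds a pair of gp130 and OSMR, leukaemia inhibitory factor a pair of gp130 and LIFR, and interleukin 6 first binds its own chain, the product of Il6ra. The receptors activate JAK kinases, which phosphorylate the transcription factor STAT3. STAT3 in turn induces Socs3, which shuts the receptor down, and acute-phase genes such as Serpina3n. In the brain this pathway is best known in astrocytes, where it takes part in the reactive response to injury.

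The bases just before the start of a gene show which known factor motifs lie there, and the pathway's factor STAT3 and the lost factors CREB and CREM each have one. RefSeq promoter windows (GRCm38.p6) were found for all 8 genes, with 2 windows for Lifr and 9 in all. In the 250 bases before each start, both strands were searched for the STAT motif TTCNNNGAA, the CREB motif TGACGTCA (CRE), its shorter form TGACG and the AP-1 motif TGANTCA. The full CRE contains the shorter form on both strands. Of 32851 RefSeq windows of the same length, 7.02% held the STAT motif, 1.55% the CRE, 17.8% the shorter form and 6.75% the AP-1 motif. The windows of 3 genes are shown. Osmr (chr15:6874314-6874563, minus strand) is the member that the expression values turn on, and it held none of these motifs. Socs3 (chr11:117969367-117969616, minus strand) was the 1 member with a STAT match, which starts at position -154 from the gene's start. Jak1 (chr4:101265224-101265473, minus strand) was the 1 member with a full CRE, at position -101. Matches are in capitals, each sequence is written 5′ to 3′ along the gene, and a match describes letters, not binding.
Osmr: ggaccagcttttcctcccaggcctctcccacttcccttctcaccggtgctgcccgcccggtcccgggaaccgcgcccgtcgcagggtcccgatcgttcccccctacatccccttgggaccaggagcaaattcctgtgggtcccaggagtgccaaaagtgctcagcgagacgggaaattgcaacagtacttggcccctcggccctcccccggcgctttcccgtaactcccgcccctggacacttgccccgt
Socs3: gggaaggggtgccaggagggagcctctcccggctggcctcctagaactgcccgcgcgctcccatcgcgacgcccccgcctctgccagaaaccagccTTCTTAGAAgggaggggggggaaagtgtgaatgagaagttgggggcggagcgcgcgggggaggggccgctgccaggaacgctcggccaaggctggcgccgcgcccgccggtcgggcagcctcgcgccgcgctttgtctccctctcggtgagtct
Jak1: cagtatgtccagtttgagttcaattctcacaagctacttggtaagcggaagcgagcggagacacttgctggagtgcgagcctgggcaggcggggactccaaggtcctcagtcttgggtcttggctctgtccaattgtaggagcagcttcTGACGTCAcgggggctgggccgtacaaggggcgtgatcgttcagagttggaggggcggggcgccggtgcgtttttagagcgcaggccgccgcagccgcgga
Among the other genes, Il6ra held the shorter form at position -236, and the windows of Il6st, Lifr, Stat3 and Serpina3n held no match. RefSeq's extents for Osmr (chromosome 15, 6813568 to 6874968), Socs3 (chromosome 11, 117966079 to 117970336) and Lifr (both windows) include these windows whole. The Jak1 window reaches into that gene's extent, which ends at 101265282 on chromosome 4. The Stat3 window likewise reaches into the extent of Stat3, which ends at 100939594 on chromosome 11. So does the Serpina3n window, where the gene's extent starts at 104406646 on chromosome 12. No match in a window says only that these letters are absent from it.

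Values are the deposited log2 values, in which 1 unit is a doubling of signal. The groups were compared by a linear model with limma across all probe sets, with p-values adjusted by Benjamini-Hochberg and a threshold of 0.05. Across the whole table the probe sets of the targeted genes were lower in mutants in averaged difference (3 of 3 for Creb1 and 2 of 2 for Crem, from -0.29 to -0.09). The median over all probe sets was -0.06 in that comparison. None of these probe sets passed, with adjusted p of 0.141 to 0.630 by limma, and which part of each gene they read is not stated. The third control kainate array stood apart: its interquartile range was 3.74 log2 units against 4.40 to 4.61 for the other 11. It was the highest of the 12 arrays for 84.0% of probe sets below the median level and the lowest for 39.9% of those above it. Among the members it was the highest for 7 of 7 below the median level and the lowest for 5 of 8 above it. The Creb1 probe sets also lay below the median level (percentiles 26.0 to 45.0), and their differences are given only with that array. Lifr probe sets 2, 3 and 5, also below it, had averaged genotype differences of -0.11 to -0.10, and of -0.04 to -0.02 without that array. The small Creb1 differences are therefore not read as a sign of the lost gene. The members' kainate differences in controls, and several other results that move with that array, are given below with and without it.

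Osmr, the chain that makes gp130 a receptor for oncostatin M, was low in both control groups and higher in both mutant groups. Its 1 probe set stood at percentile 50.4 of all probe sets by mean level. Both control group means lay below the median of every array (4.23 to 4.47), so the fold differences below start from a low level. In control saline arrays it measured 3.82, 3.87 and 3.61, and in control kainate arrays 3.75, 4.12 and 3.88. In mutant saline arrays it measured 4.78, 4.52 and 4.19, and in mutant kainate arrays 5.68, 4.60 and 5.65. All 6 mutant arrays lay above all 6 control arrays, a separation found for 0.733% of all probe sets. Within saline alone 3.85% of all probe sets had every mutant array above every control array, and within kainate 4.03%, and Osmr was the only member in either count. The group means ± SD (n = 3) were 3.77 ± 0.14, 3.91 ± 0.19, 4.50 ± 0.29 and 5.31 ± 0.62 in the same order. Neighbouring groups in that order overlapped within each genotype, and the lowest mutant saline array (4.19) was just above the highest control kainate array (4.12).

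The mutant minus control difference of Osmr was 0.73 ± 0.26 (SE) under saline, a 1.66-fold difference, and 1.39 ± 0.26 under kainate, or 2.63-fold. Averaged over treatments it was 1.06 ± 0.19, or 2.09-fold. The arrays of replicate 1 differed by 0.96 under saline and 1.93 under kainate, those of replicate 2 by 0.65 and 0.48, and those of replicate 3 by 0.58 and 1.77. The direction was the same in all 6 of these differences, although the replicate number is not stated to mark a shared litter or day. Of the 15 probe sets, 1 (Osmr) was past the threshold in the averaged comparison, where 0.612% of all probe sets were, and 0.419% were higher in mutants. Under saline it was 0 of 15 against 0.137%, and under kainate 0 of 15 against 0.354%, with limma. At an unadjusted p under 0.05 it was 1 of 15 in each of the 3 comparisons, beside 743 of 12422 probe sets averaged, 319 under saline and 616 under kainate. These comparisons chose the gene, so nothing is read from the counts. Leaving out any 1 array other than the second mutant kainate array took Osmr off the list of the averaged comparison, with differences from 0.97 to 1.24 over the 12 such fits.

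**Figure D1:**
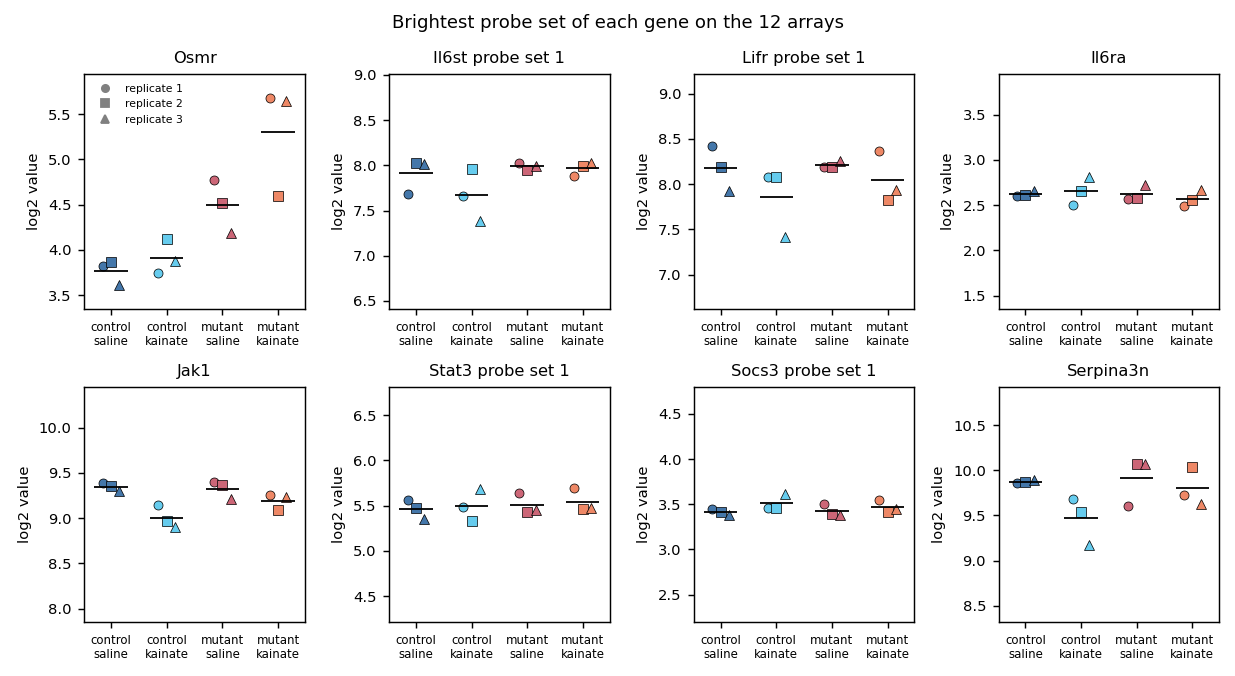
Log2 value (y axis) of the brightest probe set of each of the 8 genes on the 12 arrays, 1 panel per gene, with the groups along the x axis, a marker shape per replicate number and bars at the group means. For Osmr the 6 mutant arrays lie above the 6 control arrays, with the second mutant kainate array (4.60) below the other two of its group, and for Lifr and Il6st the lowest array is the third control kainate array (7.41 and 7.39).

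Kainate was followed by a larger Osmr value in mutants than in controls, but the difference did not pass the test. In mutants the kainate minus saline difference was 0.81 ± 0.26 (95% interval 0.23 to 1.40), 1.75-fold, with an adjusted p of 0.514 by limma. In controls it was 0.15 ± 0.26, with an adjusted p of 0.767, and 0.17 without the third control kainate array. The difference between these was 0.66 ± 0.37 (95% interval -0.16 to 1.49), with an adjusted p of 0.939 by limma. The mutant kainate arrays were not alike: replicates 1 and 3 stood at 5.68 and 5.65, and replicate 2 at 4.60, within the range of the mutant saline arrays. Without that array the kainate difference in mutants was 1.17, with an adjusted p of 0.0324 by limma. Leaving out any other single array gave differences of 0.63 to 0.95 that did not pass.

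Hippocampal tissue holds many cell types, and in bulk RNA more cells of a type and more RNA per cell cannot be told apart. Of 15 measured markers of microglia and macrophages, 10 were higher in mutants and 0 lower in the averaged comparison (limma). This list was drawn up with results of these arrays known, and 0.419% of all probe sets were higher. The 10 were Cd52, Tyrobp, C1qa, C1qb, C1qc, Csf1r, Ctss, Laptm5, Mpeg1 and Lyz2. The other 5, Cx3cr1, Aif1, Fcgr3, Fcer1g and Cd68, did not pass (0.19, 0.43, -0.07, -0.01 and 1.35). With kainate in mutants 0 of the 15 passed, and 3 had an unadjusted p under 0.05 by limma, beside 780 of 12422 probe sets. The 15 differences ran from -0.46 for Cx3cr1 to 1.36 for Cd52, with a median of 0.20, and Osmr differed by 0.81. The microglial list's mean log2 value ran from 5.87 to 5.93 over control saline arrays and from 5.96 to 6.19 over control kainate arrays. It ran from 6.70 to 6.92 over mutant saline arrays and from 6.95 to 7.22 over mutant kainate arrays. Of 9 astrocyte markers 1, Gfap, passed as higher in mutants. Higher mutant means were found for 8 of the 9, with a median averaged difference of 0.14, beside -0.06 over all probe sets. The astrocyte list's mean ran from 9.23 to 9.80 over the 6 control arrays and from 9.47 to 10.05 over the 6 mutant arrays. None of the 8 markers of endothelium and blood, 8 of fibroblasts and meninges, 7 of oligodendrocytes, 4 of choroid plexus or 8 of neurons passed in that comparison by limma, and 1, 0, 0, 0 and 0 of them had an unadjusted p under 0.05. All 7 oligodendrocyte markers had lower mutant means, and without the third control kainate array 1 of them, the myelin gene Mog, fell (-0.29, adjusted p = 0.0435). Leaving out each array in turn left 9 to 10 microglial markers higher. The part of these cells in the Osmr difference was not tested.

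The shared chain gp130, read by the brighter Il6st probe set, measured 7.69, 8.03 and 8.02 in control saline arrays and 7.66, 7.96 and 7.39 in control kainate arrays. It measured 8.02, 7.95 and 8.00 in mutant saline arrays and 7.88, 7.99 and 8.03 in mutant kainate arrays. The mutant arrays all lay between 7.88 and 8.03, and the control arrays spread more widely, with the third kainate array the lowest. The averaged difference between genotypes was 0.19 ± 0.10, or 0.12 without the third control kainate array. Kainate gave -0.24 ± 0.14 in controls (adjusted p = 0.729 by limma), or -0.10 without the third control kainate array, and -0.02 ± 0.14 in mutants. Il6st probe set 2 lay between 4.17 and 4.68 on all 12 arrays. Its averaged difference between genotypes was -0.06 ± 0.09, or -0.0007 without the third control kainate array. Its kainate difference in controls was -0.05, or -0.17 without that array.

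Lifr, the chain that binds leukaemia inhibitory factor, lies near Osmr on chromosome 15 (7090610 to 7197489). Its brightest probe set measured 8.42, 8.18 and 7.92 in control saline arrays and 8.08, 8.08 and 7.41 in control kainate arrays. It measured 8.19, 8.19 and 8.26 in mutant saline arrays and 8.37, 7.83 and 7.94 in mutant kainate arrays. All 4 groups overlapped, and the averaged difference between genotypes was 0.11 ± 0.14, or 0.001 without the third control kainate array. The kainate difference was -0.32 ± 0.20 in controls (adjusted p = 0.729 by limma), of which -0.10 remained without the third control kainate array, and -0.17 ± 0.20 in mutants. The other 4 Lifr probe sets had means from 2.69 to 3.50, at percentiles 20.6 to 38.7 of all probe sets. Each varied by 0.32 to 0.59 over the 12 arrays and by 0.18 to 0.24 without the third control kainate array. Their kainate differences in controls were 0.05 to 0.13, and turned to values from -0.05 to -0.03 without it.

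Il6ra, the chain specific to interleukin 6, was dim, at percentile 19.1, and lay between 2.49 and 2.81 on all arrays. Its averaged difference between genotypes was -0.04 ± 0.07, or -0.003 without the third control kainate array. Its kainate differences were 0.04 ± 0.09 in controls (-0.04 without that array) and -0.05 ± 0.09 in mutants. Values this near the bottom of the scale carry little signal above background, so a change in such a gene could go unseen.

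Jak1, a kinase bound to gp130, was bright and was lower after kainate in every control array. It measured 9.38, 9.36 and 9.30 in control saline arrays and 9.15, 8.96 and 8.90 in control kainate arrays. In mutants it measured 9.40, 9.37 and 9.21 with saline and 9.25, 9.09 and 9.23 with kainate. The control groups did not overlap, as was so in this direction for 4.75% of all probe sets, and the mutant groups did. The difference in controls was -0.34 ± 0.09 with an adjusted p of 0.333 by limma (unadjusted 0.0030), and -0.29 without the third control kainate array (adjusted p = 0.449). In mutants it was -0.14 ± 0.09, with an adjusted p of 1.00. Between genotypes the averaged difference was 0.08 ± 0.06, or 0.06 without the third control kainate array.

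Stat3, the transcription factor of the pathway, was steady on its brighter probe set, which lay between 5.33 and 5.69 on all 12 arrays. Its averaged difference between genotypes was 0.04 ± 0.08, or 0.09 without the third control kainate array. Its kainate differences were 0.04 ± 0.11 in controls (-0.05 without that array) and 0.03 ± 0.11 in mutants. Stat3 probe set 2 measured 3.74, 4.67 and 4.54 in control saline arrays and 4.66, 4.52 and 2.63 in control kainate arrays. It measured 4.67, 4.87 and 4.67 in mutant saline arrays and 4.89, 4.61 and 4.66 in mutant kainate arrays. The 2 low values were both in controls, and the rest lay between 4.52 and 4.89. Its averaged difference between genotypes was 0.60 ± 0.32 with all arrays and 0.27 without the third control kainate array, and its kainate difference in controls turned from -0.38 to 0.27 without that array.

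Socs3, the feedback inhibitor that STAT3 induces, lay low on both probe sets, at percentiles 37.6 and 8.82. Probe set 1 measured 3.45, 3.42 and 3.38 in control saline arrays and 3.46, 3.46 and 3.61 in control kainate arrays. It measured 3.51, 3.39 and 3.38 in mutant saline arrays and 3.54, 3.41 and 3.45 in mutant kainate arrays. The control groups did not overlap, as was so in this direction for 2.29% of all probe sets, but the gap was narrow (3.45 against 3.46). The kainate difference in controls was 0.10 ± 0.08, or 0.05 without the third control kainate array, and in mutants 0.04 ± 0.08. Probe set 2 lay between 1.90 and 2.30, with the third control kainate array the highest, and between 1.90 and 2.05 on the other 11. Its kainate difference in controls was 0.10, or -0.01 without that array.

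Serpina3n encodes a secreted protease inhibitor that is a marker of reactive astrocytes. It measured 9.86, 9.87 and 9.89 in control saline arrays and 9.68, 9.54 and 9.18 in control kainate arrays. In mutants it measured 9.60, 10.06 and 10.06 with saline and 9.73, 10.04 and 9.63 with kainate. All 3 control kainate arrays lay below the control saline arrays, as was so for 4.75% of all probe sets, and the mutant groups overlapped. The kainate difference in controls was -0.41 ± 0.16 (adjusted p = 0.601 by limma, unadjusted 0.0316), and -0.26 without the third control kainate array (adjusted p = 0.975). In mutants it was -0.11 ± 0.16. The mean of 4 choroid plexus markers, a tissue beside the hippocampus, ran from 7.48 to 7.61 over control saline arrays and from 6.63 to 7.52 over control kainate arrays, and its part in this difference was not tested. The averaged difference between genotypes was 0.18 ± 0.12, or 0.11 without the third control kainate array. Serpina3n has near-identical neighbours in its gene cluster on chromosome 12, and signal shared with them was not separated.

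In the kainate comparisons, 0 of the 15 probe sets passed in controls, where 0.33% of all probe sets did, and 0 of 15 passed in mutants, where 0.298% did (limma). At an unadjusted p under 0.05 there were 2 members in controls (Jak1 and Serpina3n) of 915 probe sets in all, and 1 in mutants (Osmr) of 780. For the difference between the kainate effects, 0 of 15 passed and 0.0% of all probe sets did, with 0 members and 107 probe sets at an unadjusted p under 0.05. The members' median kainate difference was 0.04 in controls and -0.02 in mutants, beside 0.05 and -0.02 over all probe sets. Without the third control kainate array the control medians turned to -0.05 for the members and -0.03 over all. Between genotypes the averaged median was -0.02, beside -0.06 over all, or 0.001 beside -0.02 without that array.

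**Figure D2:**
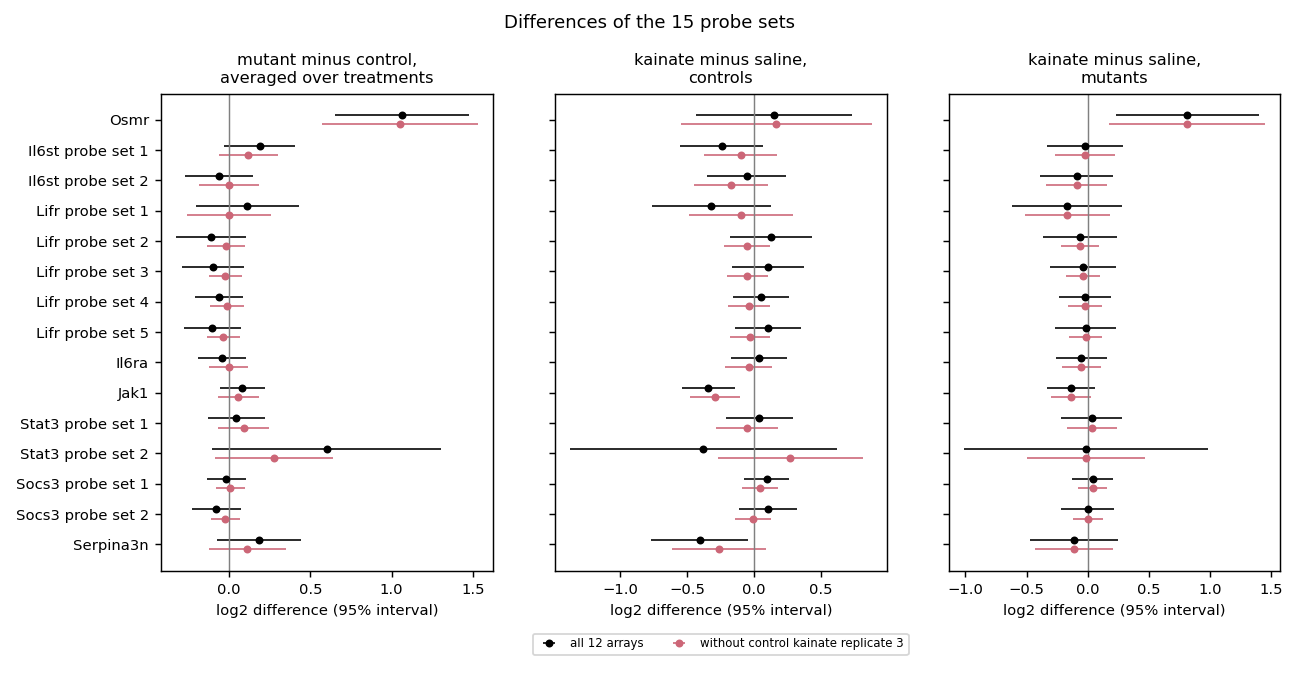
Log2 difference (x axis) with its 95% interval for each of the 15 probe sets, for mutant minus control averaged over treatments (left), kainate minus saline in controls (middle) and in mutants (right), from all 12 arrays (black) and without the third control kainate array (red). Osmr stands at 1.06 on the left and at 0.81 on the right, and the control kainate differences of Serpina3n (-0.41) and Lifr probe set 1 (-0.32) move towards 0 without that array.

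The rest of the pathway was read from a list of 88 genes in 7 roles, of which 65 were measured, each by its brightest probe set. The cytokines Il6, Il11 and Ctf1 were the 3 of 10 ligands measured, at percentiles 18.7 to 27.3, and 0 of 3 passed in any comparison by limma. Osm and Lif themselves were not among the measured genes. Of 6 other receptor chains, 3 other kinases and 4 other STAT factors, 0 passed in any comparison, and their kainate and genotype differences lay between -0.21 and 0.21. Among all of these and the ligands 0 had an unadjusted p under 0.05. Lepr, the leptin receptor, differed by 0.15 with kainate in controls, or -0.09 without the third control kainate array, and by -0.09 in mutants. Jak2, a kinase that also binds gp130, differed by 0.15 in controls (0.20 without that array) and -0.04 in mutants. Of 16 inhibitors and adaptors 0 passed, with 3 at an unadjusted p under 0.05 for kainate in controls, 1 for kainate in mutants, 1 for genotype under kainate and 1 in the averaged genotype comparison. Over all 12422 probe sets these numbers were 915, 780, 616 and 743. The phosphatase gene Ptpn2 had the widest difference among them, 0.72 with kainate in mutants (adjusted p = 0.342 by limma). Serping1, an inhibitor of the complement protease C1, was the 1 measured relative of Serpina3n. It was 0.75 ± 0.21 higher in mutants on average, with an adjusted p of 0.237 by limma. That value rests in part on the third control kainate array, which measured 2.95. The other control arrays measured 3.97 to 4.39 and the mutant arrays 4.35 to 5.12, so the genotypes overlapped.

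Among 32 genes listed as STAT3 targets, a list drawn up with results of these arrays known, 1 rose with kainate in controls, 3 rose in mutants and 0 fell in either, against 0.282% and 0.266% of all probe sets that rose. Without the third control kainate array 3 rose in controls, where Cebpb and the survival gene Mcl1 (0.50, adjusted p = 0.0496 by limma, against 0.42 and 0.212 with all arrays) joined Junb. Leaving out any other array left the control count at 1, and the mutant count was 3 to 4 over the 12 such fits. At an unadjusted p under 0.05 there were 6 of 32 in controls and 9 in mutants by limma. Over all 12422 probe sets these numbers were 915 and 780. Junb, an AP-1 subunit and immediate early gene, rose in both genotypes. It measured 7.93, 7.33 and 7.32 in control saline arrays and 10.94, 10.61 and 10.67 in control kainate arrays, a difference of 3.21 ± 0.17. In mutants it measured 7.15, 7.21 and 7.23 with saline and 10.27, 10.38 and 9.98 with kainate, a difference of 3.02 ± 0.17.

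Cebpb and Cebpd encode C/EBP transcription factors that drive acute-phase genes, and they passed in mutants. Cebpd measured 8.38, 7.95 and 8.14 in mutant saline arrays and 9.42, 9.16 and 9.43 in mutant kainate arrays, a difference of 1.18 ± 0.14 (adjusted p = 0.0024 by limma). In control saline arrays it measured 8.17, 8.38 and 7.96, and in control kainate arrays 8.64, 8.73 and 8.66, a difference of 0.51 ± 0.14 (adjusted p = 0.354). All 3 kainate arrays lay above the saline arrays in each genotype, which in controls was so for 2.29% of all probe sets. Cebpb measured 7.55, 7.00 and 7.41 in mutant saline arrays and 9.16, 8.92 and 8.82 in mutant kainate arrays, a difference of 1.65 ± 0.21 (adjusted p = 0.0066). In controls it measured 7.66, 7.70 and 7.68 with saline and 9.11, 8.80 and 8.18 with kainate, a difference of 1.02 ± 0.21 (adjusted p = 0.147, or 0.010 without the third control kainate array). The kainate effects of neither gene were shown to differ between genotypes, with differences of 0.67 for Cebpd and 0.63 for Cebpb and an adjusted p of 0.939 for each by limma.

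Between genotypes, 1 of the 32 target genes passed in the averaged comparison, where 0.612% of all probe sets did. At an unadjusted p under 0.05 it was 9 of the 32 in either direction by limma, beside 743 of 12422 probe sets. The averaged difference was above 0 for 15 of the 32, with a list median of -0.03, beside -0.06 over all probe sets. Gfap, the filament protein of astrocytes, measured 9.69, 8.64 and 8.85 in control saline arrays and 9.60, 9.61 and 9.78 in control kainate arrays. It measured 11.48, 10.62 and 10.32 in mutant saline arrays and 11.07, 11.15 and 11.26 in mutant kainate arrays. All 6 mutant arrays lay above all 6 control arrays, as for 0.733% of all probe sets, and the averaged difference was 1.62 ± 0.21 (adjusted p = 0.0055 by limma). The 88 genes' averaged median over the 65 measured was -0.04, beside -0.06 over all probe sets.

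**Figure D3:**
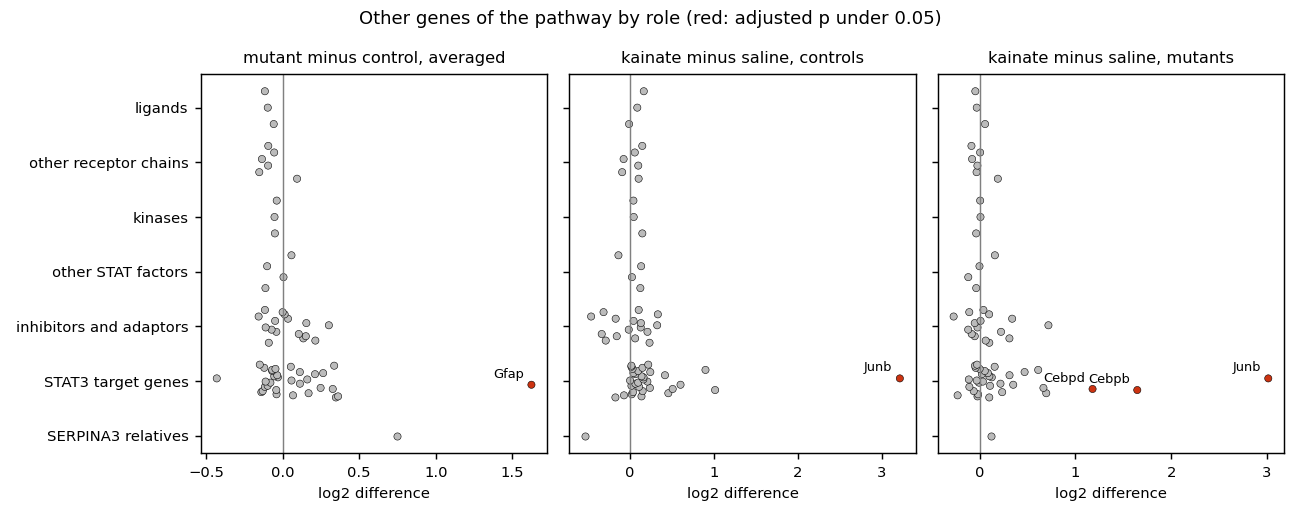
Log2 difference (x axis) of the 65 measured pathway genes by role, each point a gene, in the kainate and genotype comparisons, with genes past the threshold marked. Junb, Cebpb and Cebpd stand to the right in the kainate comparisons and Gfap in the genotype comparison, while ligands, receptor chains, kinases and STAT factors lie close to 0.

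The probe sets whose 12 values ran closest to those of Osmr were sought by the root mean square distance of values centred on their own mean. This is a description over 12 arrays that share the same pools. The nearest were Gusb, the lysosomal beta-glucuronidase (distance 0.248), Chil1, a secreted chitinase-like protein (0.293), Cd74, the invariant chain of antigen presentation (0.321), Itgb2, a leukocyte integrin chain (0.322), and Abca1, a cholesterol exporter (0.338). Osmr's own spread about its mean was 0.674 on the same scale. Gusb had group means of 4.38, 4.43, 4.80 and 5.55 in the order control saline, control kainate, mutant saline and mutant kainate. For Serpina3n, whose spread was 0.248, the nearest were Car14, a carbonic anhydrase (0.105), Rpl10a, a ribosomal protein (0.122), Pdap1 (0.123), Stard3 (0.124) and Cdc42, a small GTPase (0.124).

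**Figure D4:**
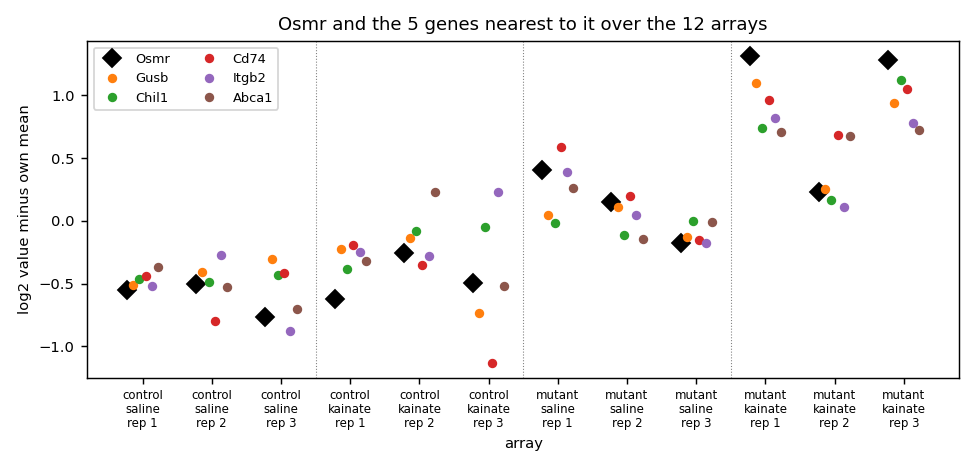
Log2 value minus the probe set's own mean (y axis) for Osmr and the 5 nearest genes on each of the 12 arrays (x axis), with groups split by dotted lines. Osmr is highest in mutant kainate replicates 1 and 3. The second mutant kainate array is the lowest of its group for Osmr and each of the 5 nearest genes, by little for Abca1 (0.67 against 0.71 and 0.72).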

How the data were processed

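Affymetrix MG-U74A arrays were hybridised with RNA from 12 pools, each from the hippocampi of 3 mice, and each of 4 groups had 3 arrays. The authors deposited log2 values, computed with GCRMA under R 2.4.1 per the submitters' processing notes. GCRMA corrects background by probe sequence, so that dim probe sets lie close together near the bottom of the scale. Whether all arrays were processed together is not given in the sources used here. The number of arrays limits the precision.

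After removal of 66 control probe sets from 12488, the remaining 12422 entered the fit whatever their level. The platform annotation gave 10833 probe sets 1 symbol, 396 several and 1193 none, and 10817 of the symbols matched RefSeq by Entrez identifier. limma 3.58.1 in R 4.3.3 fitted 1 mean per group to all 12 arrays with 8 residual degrees of freedom and 2.48 from the prior. Two-sided tests used Benjamini-Hochberg adjustment over the whole table and a threshold of 0.05. Errors are SE of the fit or, where stated, SD. The p-values measure the spread between pools.

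The members and gene lists were chosen with earlier results of these data known. Named genes were all members, list genes past the threshold, up to 3 per role with the widest differences, and the 5 probe sets nearest to Osmr and to Serpina3n. Alternatives were a replicate block, a batch term, quantile normalisation, median centring, a level filter, an intensity trend, array weights, only the arrays compared, gene means and leaving out each array. The use of only replicates 2 and 3 was added after seeing the data.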

Additional observations from a re-analysis of the deposited data

How the results depend on the processing

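Counts of the 15 member probe sets past the threshold were recomputed under each alternative. In the averaged genotype comparison the count of 1 (Osmr) fell to 0 with quantile normalisation (difference 1.10), with median centring (1.10) and with only replicates 2 and 3 (0.87). That comparison chose Osmr, so its counts describe the fits and are no evidence for the difference. Leaving out each array in turn gave counts of 0 to 1, with the call kept only without the second mutant kainate array. In the genotype comparison under kainate the count of 0 became 1 (Osmr) with replicate 1 against 2 and 3 as a batch term and with an intensity trend and robust prior, and leaving out each array gave 0 to 1. For kainate in mutants leaving out each array also gave 0 to 1. The 2 ranges that reached 1 did so without the second mutant kainate array.

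Array weights gave 2 member calls for kainate in controls, 3 for kainate in mutants, 2 for the difference of kainate effects, 9 for genotype under saline, 2 for genotype under kainate and 2 for the averaged genotype comparison. The estimate of the weights stopped before convergence, with weights from 0.0204 to 75.2, and called 8537 probe sets under saline. Under it the saline genotype differences turned from 0.08 to -0.077 for Il6st and from 0.01 to -0.025 for Socs3, each on probe set 1. In the other alternatives, 0 calls were made for the 7 genes other than Osmr in any comparison, and over all probe sets the counts ran from 22 to 146 for kainate in controls, 26 to 94 for kainate in mutants, 0 to 5 for the difference, 2 to 38 and 5 to 77 for genotype under saline and kainate, and 41 to 140 averaged.

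Osmr kept its sign between genotypes in every alternative. With a replicate block the averaged genotype comparison had 1 member call (Osmr, which that comparison chose) and the other 5 comparisons had 0. Same-numbered arrays deviated together with correlations of 0.302 to 0.848 for numbers 1 and 2. For number 3, which includes the third control kainate array, they ran from -0.0109 to 0.621. Arrays of different number and group ran from -0.722 to 0.568. The numbers were not taken as pairs in the main fit, so a deviation shared by arrays of 1 number stays in its error. The level filter left out Il6ra and Socs3, whose levels limit what can be seen.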
